A study of Mus musculus with 12 samples.

Results

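RAW 264.7 macrophages of the sh-Luc control line were given OxLDL (oxidised low-density lipoprotein), and their transcripts were set against those of untreated cells of the same line. RAW 264.7 is a macrophage-like line of the BALB/c mouse. The comparison holds 6 of the 12 libraries of the series, taken by their labels and by no measured value, with 3 libraries of untreated cells and 3 of cells kept for 24 h with 100 µg/ml OxLDL. All 6 carry a short hairpin RNA against luciferase (sh-Luc), brought in by nucleofection and held by puromycin selection, so hairpin and selection are common to both groups. The labels describe 1 stable sh-Luc line, whose replicates 1, 2 and 3 are cultures at passages 9, 10 and 11. The p-values therefore measure the spread between cultures of 1 line. The other 6 libraries come from a stable line labelled sh-PHLPP1, with and without the same OxLDL treatment. They enter through the shared estimate of the spread and through a test of the difference between the lines. The title of the series concerns PHLPP1, a protein phosphatase, in lipid accumulation. The comparison within the control line asks which transcripts differ between treated and untreated cells.

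OxLDL enters macrophages through scavenger receptors such as CD36 and is taken apart in lysosomes, which need the proton pump V-ATPase to stay acid. Its oxidised lipids react with thiols and are known to activate NRF2, a transcription factor that KEAP1 holds back and that drives antioxidant and heme-degrading enzymes. Macrophages also sense modified lipoproteins through receptors that raise chemokines and cytokines. In unstimulated macrophages, low interferon signalling keeps a set of antiviral genes at a basal level. Iron, copper and zinc are moved by dedicated carriers, since macrophages recycle iron and withhold metals from microbes.

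The 6 libraries held 16020186 to 27422114 counts. Levels are given as CPM, counts relative to the library total and scaled between libraries by TMM factors, in the order of replicates 1, 2 and 3. A count of 0 allows up to 3 counts, or 0.110 to 0.187 CPM in these libraries, by counting error only. Correlations of log2 CPM between the OxLDL replicates were all 0.994, and untreated replicates 1 and 3 reached the same value. Untreated replicate 2 stood apart, with correlations of 0.983 and 0.984 to replicates 1 and 3, so results that lean on it are given with and without it. In the line labelled sh-PHLPP1, untreated replicate 1 stood further apart, with correlations of 0.967 and 0.966 to its replicates 2 and 3. It bears on the sh-Luc test only through the shared spread, and it bears directly on the difference between the lines. All 15 macrophage markers had counts, with a summed level of 17422 to 20781 CPM in untreated and 19526 to 21524 CPM in OxLDL libraries. Only Mertk, a receptor for dying cells, was nearly absent, with at most 10 counts over the 6 libraries. Markers of dendritic cells (2 of 10 without a count) summed to at most 8.41 CPM in any of the 6 libraries, those of fibroblasts and epithelium (4 of 11) to at most 3.42 CPM, and those of T, B and NK cells (7 of 10) to at most 0.201 CPM. Osteoclast markers summed to 1217 to 1834 CPM untreated and 1076 to 1179 CPM after OxLDL. Of the 12 osteoclast markers Ctsk, Dcstamp, Nfatc1, Atp6v0d2, Acp5 and Ocstamp were each highest among the untreated libraries in replicate 2, by more than 2-fold. Ctsk, a cathepsin, stood at 43.9, 170 and 38.6 CPM in untreated replicates 1 to 3 and at 149 to 181 CPM after OxLDL, whereas Nfatc1, the transcription factor of osteoclast formation, stood at 77.3, 212 and 74.2 CPM untreated and 49.2, 47.8 and 47.6 CPM after OxLDL. Phlpp1 did not pass the test in sh-Luc cells, at 12.4, 14.4 and 13.3 CPM untreated and 11.4, 13.5 and 11.4 CPM with OxLDL (log2 fold change -0.14 ± 0.13, adjusted p = 0.534). In bulk RNA, a change in the cells' transcripts and a change in the share of cells that hold them cannot be told apart.

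OxLDL moved 1230 of 13121 tested genes, 9.37% of them, at an adjusted p under 0.05 in edgeR's quasi-likelihood test with Benjamini-Hochberg adjustment. More genes rose than fell, 831 (6.33%) against 399 (3.04%), and the larger changes were more one-sided. Of the called genes, 373 rose and 112 fell at least 2-fold, and 101 rose and 28 fell at least 4-fold. The median log2 fold change of all tested genes was -0.0036. The values of the groups did not overlap for 1227 of the 1230 called genes, against 43.2% of all tested genes. The 62 gene lists described here hold 1419 of the 13121 tested genes. They hold 265 of the called genes, and 965 called genes belong to none of them. A fit of the 6 sh-Luc libraries alone called 2943 of 12560 genes (23.4%), with 1555 higher (12.4%) and 1388 lower (11.1%), so the excess of higher genes was smaller there. It called 1176 of the 1230 genes, all in the same direction. Without untreated replicate 2, 1343 genes were called (10.1%), with 930 higher (6.97%) and 413 lower (3.1%), and 954 of them were among the 1230. Without that library and without the other line, 4908 of 12751 genes were called (38.5%), 20.2% higher and 18.3% lower. Leaving out 1 library at a time gave 560 to 3083 calls, the lowest without OxLDL replicate 2 and the highest without untreated replicate 1 of the line labelled sh-PHLPP1. In the authors' deposited table, 3060 of 11854 rows had an adjusted p under 0.05, and these held 1174 of the 1230 genes (95.4% of the calls here and 38.4% of theirs), all with the same sign. Genes described as called were also called in each of the 12 fits that left out 1 library, except those given with the highest adjusted p of such fits.

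The genes that rose most were led by secreted signals, which made up 7 of the 20 leading higher genes. Among these, Cxcl3, Ccl7 and Il23a reached the mean level asked of leading genes only through libraries of the other line. Il23a had the highest adjusted p of 0.108 without OxLDL replicate 2. Csf3 encodes the granulocyte growth factor G-CSF and lies on chromosome 11 (GRCm38, chr11:98701263-98703629). It stood at 10.1, 25.1 and 12.0 CPM untreated and 455, 536 and 462 CPM after OxLDL. The groups were far apart, and the log2 fold change of 4.94 ± 0.33 was the largest of any leading gene (adjusted p = 4.42e-06). Ccl2, a chemokine for monocytes, went from 11.6, 22.4 and 13.4 to 201, 248 and 238 CPM (3.86 ± 0.26, adjusted p = 4.42e-06). In both genes untreated replicate 2 was the highest untreated library and still far below the treated ones. Cxcl2, a chemokine for neutrophils, went from 119, 162 and 147 to 1678, 2057 and 1763 CPM (3.68 ± 0.27, adjusted p = 6.62e-06). Its relative Cxcl3 had only 1, 0 and 5 counts untreated, and 0.790, 1.36 and 0.810 CPM after OxLDL, so that its log2 fold change of 3.49 ± 0.60 became 5.24 without untreated replicate 3. Ccl7, another monocyte chemokine, was also near the floor untreated at 0.0443, 0.282 and 0.337 CPM and rose to 4.65, 8.05 and 7.35 CPM.

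Of 14 tested chemokines, 6 rose and 2 fell (57.1% called, against 9.37% of all tested genes), with a median log2 fold change of 1.09. Without 1 library 6 to 8 rose, and 1 fell without OxLDL replicate 1. The macrophage chemokine Ccl3 rose from 569, 732 and 579 to 2900, 2859 and 2960 CPM (2.21 ± 0.27, adjusted p = 0.000248). Cxcl16 went the other way. It encodes a membrane-bound chemokine that also binds oxidised lipoprotein, and it fell from 34.3, 33.7 and 32.8 to 14.4, 13.6 and 13.5 CPM (-1.28 ± 0.12, adjusted p = 4.46e-05). The interferon-induced chemokine Cxcl10 stood at 19.0, 29.0 and 27.4 CPM untreated and 7.51, 9.16 and 8.72 CPM after OxLDL (adjusted p = 0.0311), but 5 of the 12 fits without 1 library lost its call, with the highest adjusted p of 0.118 without OxLDL replicate 1, and it was 0.0563 with the replicate block, a fit with the replicate number, and so the passage, as a term. Of 17 tested cytokines and colony-stimulating factors 6 rose (35.3% called), and 3 rose without OxLDL replicate 2. Osm, a cytokine of the interleukin-6 family, rose from 12.1, 9.01 and 12.7 to 31.0, 41.0 and 34.7 CPM (1.66 ± 0.17, adjusted p = 7.66e-05). Il6 itself was called at very low levels, at 0.0887, 0.0804 and 0.169 CPM untreated and 0.439, 0.552 and 0.685 CPM after OxLDL. Tnf stood at 211, 442 and 229 CPM untreated and 653, 880 and 724 CPM after OxLDL (adjusted p = 0.0216), with the highest adjusted p of 0.0895 without untreated replicate 1. Among 19 growth and angiogenic factors 5 rose (26.3% called), and 2 to 7 did so without 1 library. The fewest rose without OxLDL replicate 2 and the most without untreated replicate 1 of the other line. Hbegf, a ligand of the epidermal growth factor receptor, rose from 0.931, 1.77 and 1.48 to 6.19, 7.35 and 6.35 CPM (2.24 ± 0.22, adjusted p = 6.18e-05).

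**Figure D1:**
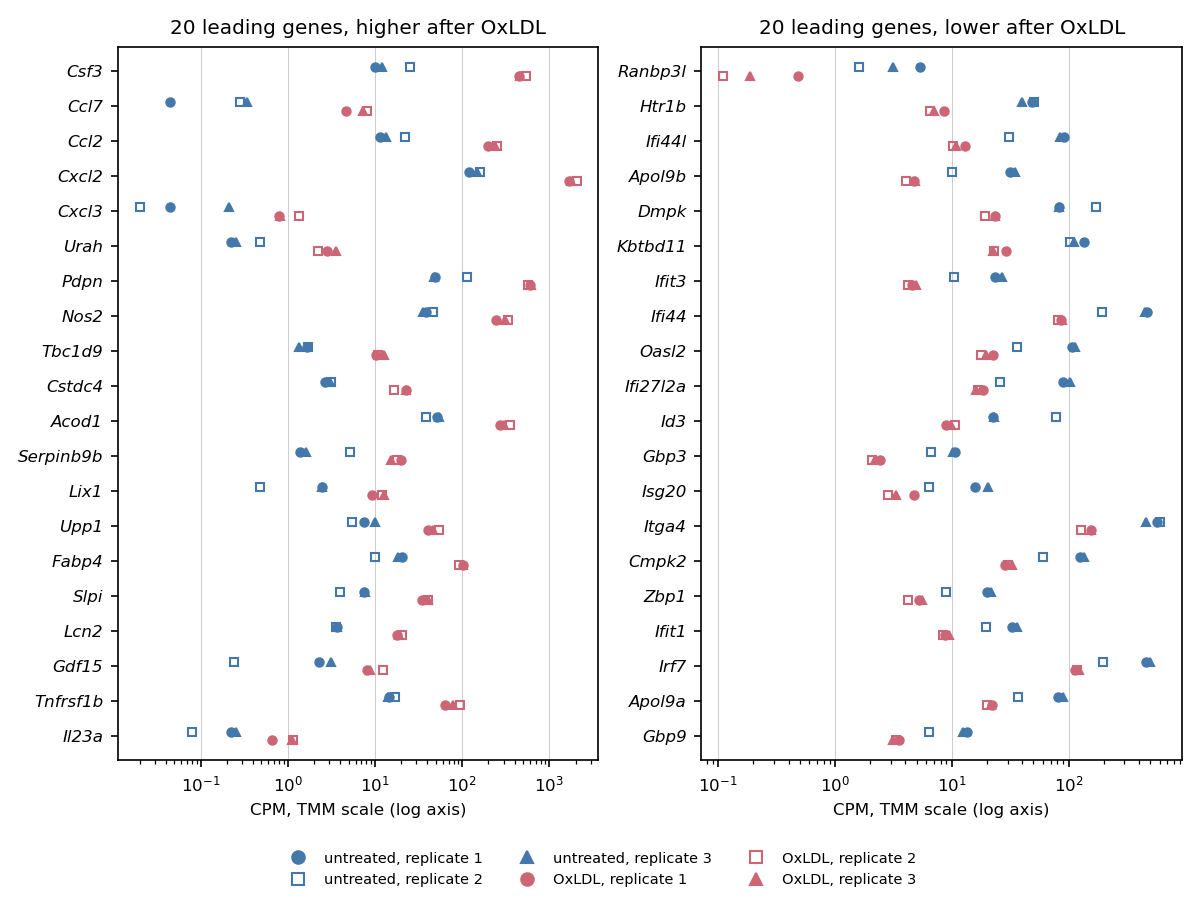
Levels of the 20 leading higher and 20 leading lower genes in the 6 sh-Luc libraries, as CPM on a log axis, with 1 point per library. A library at 0 is drawn at 0.02 CPM, as is Cxcl3 in untreated replicate 2. In each gene shown, the 3 OxLDL libraries lie on one side of the 3 untreated libraries, which the choice of leading genes required.

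Beside chemokines and cytokines, the leading higher genes include enzymes of small molecules. Acod1, which makes itaconate from an intermediate of the citrate cycle, stood at 51.0, 38.6 and 54.0 CPM untreated and 271, 356 and 306 CPM after OxLDL. Its log2 fold change was 2.70 ± 0.16 (adjusted p = 2.5e-06), and the lowest treated library was far above the highest untreated one. Nos2, the inducible nitric oxide synthase, went from 38.7, 46.1 and 35.7 to 246, 338 and 308 CPM (2.89 ± 0.16, adjusted p = 2.5e-06). Upp1, a uridine phosphorylase of pyrimidine salvage, went from 7.58, 5.47 and 9.90 to 40.3, 54.5 and 46.1 CPM (2.62 ± 0.32, adjusted p = 0.00032). Urah acts in the breakdown of uric acid. It rose from 0.222, 0.483 and 0.253 CPM, which is close to the floor, to 2.81, 2.21 and 3.61 CPM (3.11 ± 0.43, adjusted p = 0.000694). Slpi, a secreted inhibitor of serine proteases, went from 7.58, 4.02 and 7.75 to 34.4, 40.5 and 40.6 CPM (2.58 ± 0.25, adjusted p = 5.54e-05). The serpin Serpinb9b stood at 1.37, 5.19 and 1.60 CPM untreated and 19.7, 17.8 and 15.5 CPM after OxLDL. Untreated replicate 2 was the high untreated library, and without it the log2 fold change moved from 2.69 ± 0.44 to 3.57. Cstdc4, of the cystatin family of cysteine protease inhibitors, rose from 2.70, 3.18 and 3.03 to 22.5, 16.4 and 22.8 CPM. Counts of Cstdc4, Apol9a, Apol9b, the Gbp genes and Ifit3b are less certain, as each has close relatives in the genome.

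Surface and trafficking proteins were also among the leading higher genes. Pdpn (podoplanin) is a mucin-like membrane glycoprotein that binds the platelet receptor CLEC-2. It went from 49.3, 113 and 48.0 to 598, 570 and 616 CPM (3.09 ± 0.27, adjusted p = 3.55e-05). Tnfrsf1b, the second receptor for tumour necrosis factor, rose from 14.4, 16.9 and 14.1 to 63.2, 94.9 and 77.9 CPM (2.38 ± 0.21, adjusted p = 3.55e-05). Tbc1d9 has the domain of proteins that switch off Rab GTPases, and it rose from 1.68, 1.73 and 1.35 to 10.4, 10.9 and 12.9 CPM (2.83 ± 0.24, adjusted p = 2.88e-05). Lix1 stood at 2.48, 0.483 and 2.49 CPM untreated and 9.31, 12.1 and 12.6 CPM after OxLDL, with untreated replicate 2 the lowest library (2.65 ± 0.53, adjusted p = 0.00827). The stress cytokine Gdf15 likewise had its lowest level in that library, at 2.26, 0.241 and 3.12 CPM untreated and 8.12, 12.4 and 8.84 CPM after OxLDL. Its log2 fold change of 2.40 ± 0.52 became 3.00 without untreated replicate 3, and its highest adjusted p was 0.062 without OxLDL replicate 2.

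Of the 20 leading lower genes, 12 belong to the lists of interferon-induced genes and GTPases, and the others are of unlike kinds. Htr1b, a serotonin receptor on chromosome 9 (chr9:81628291-81633828), fell from 48.7, 51.0 and 40.2 to 8.65, 6.47 and 6.98 CPM (-2.66 ± 0.27, adjusted p = 7.14e-05). The 3 treated libraries lay close together and far below the untreated ones. Kbtbd11, a kelch protein of the BTB family, fell from 135, 102 and 112 to 29.1, 23 and 22.6 CPM (-2.22 ± 0.15, adjusted p = 4.42e-06). It was the 1 lower gene among the 10 with the smallest p. Itga4, the alpha 4 integrin chain that binds VCAM-1, fell from 568, 607 and 461 to 156, 127 and 155 CPM (-1.90 ± 0.18, adjusted p = 3.95e-05). The kinase gene Dmpk went from 81.9, 173 and 82.3 to 23.4, 19.3 and 23.4 CPM (-2.35 ± 0.26, adjusted p = 0.00012), and its log2 fold change was -1.89 without untreated replicate 2, the highest library. Id3, an inhibitor of basic helix-loop-helix factors, rested on that library, with 22.5, 78.7 and 23 CPM untreated and 8.87, 10.6 and 9.78 CPM after OxLDL. Without it, the log2 fold change of -2.08 ± 0.59 became -1.21 (adjusted p = 0.171), and with the replicate block its adjusted p was 0.0791. Ranbp3l fell from 5.32, 1.61 and 3.16 CPM to 0.483, 0.110 and 0.187 CPM, where replicate 2 held 3 counts. Its log2 fold change of -3.67 ± 0.94 became -4.52 without OxLDL replicate 1, and its highest adjusted p was 0.13 without OxLDL replicate 2.

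Interferon-induced genes fell together. Of 51 tested, 35 fell and 1 rose, against 3.04% and 6.33% of all tested genes, and the median log2 fold change was -1.03. In all, 50 of the 51 had a log2 fold change below 0. Their mean log2 level was 6.36, 5.52 and 6.40 in the untreated libraries and 5.04 to 5.15 after OxLDL, so untreated replicate 2 lay between the others and the treated libraries. Without that library 45 fell, with a median of -1.22, and the count was 24 without OxLDL replicate 2. Ifi27, a small interferon-induced protein of mitochondrial membranes, was the member that rose, from 85.6, 171 and 81.2 to 246, 255 and 234 CPM (1.12 ± 0.22, adjusted p = 0.00795).

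Ifit1, which binds foreign RNA caps, fell from 32.6, 19.6 and 35.8 to 8.83, 8.46 and 9.47 CPM (-1.72 ± 0.19, adjusted p = 0.000114). Ifit3, its partner protein, fell from 23.5, 10.5 and 26.9 to 4.52, 4.23 and 4.92 CPM (-2.16 ± 0.31, adjusted p = 0.00113). In both genes untreated replicate 2 was the lowest untreated library but stayed above the treated ones. Their promoters are shown because each holds 2 copies of the interferon-stimulated response element (ISRE), the sequence through which interferon is known to raise such genes. The promoters come from RefSeq (GRCm38.p6) and run from 250 bases before to 50 after the start. Capitals mark the motif searched on both strands, GAAANN followed by GAAA, which here reads on the opposite strand, beginning at positions -104 and -85 in Ifit1 and -156 and -122 in Ifit3.
Ifit1 promoter (chr19:34640639-34640938, plus strand): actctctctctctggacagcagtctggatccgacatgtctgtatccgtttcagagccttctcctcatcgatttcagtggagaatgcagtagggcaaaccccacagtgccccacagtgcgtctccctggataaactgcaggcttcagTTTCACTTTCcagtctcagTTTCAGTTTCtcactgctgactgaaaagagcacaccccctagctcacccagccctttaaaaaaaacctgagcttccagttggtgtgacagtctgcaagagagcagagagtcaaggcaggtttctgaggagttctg
Ifit3 promoter (chr19:34583279-34583578, plus strand): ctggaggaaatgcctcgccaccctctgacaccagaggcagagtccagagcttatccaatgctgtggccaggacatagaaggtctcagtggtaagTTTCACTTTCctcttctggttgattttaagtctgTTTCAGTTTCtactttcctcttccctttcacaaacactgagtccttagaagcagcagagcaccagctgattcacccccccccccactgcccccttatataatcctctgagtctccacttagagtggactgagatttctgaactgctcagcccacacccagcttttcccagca
Of the 12956 tested genes with a symbol of their own, 9324 had a promoter in the table, and 4% of these promoters hold this motif. A match is a description of the sequence and not a binding site.

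Irf7, a transcription factor that drives interferon production, fell from 463, 196 and 499 to 114, 117 and 122 CPM (-1.71 ± 0.27, adjusted p = 0.00206). In Irf7 untreated replicate 2 lay well below the other untreated libraries and above the treated ones. The effectors Ifi44l (-2.60 ± 0.32), Ifi44 (-2.11 ± 0.26), Oasl2 (-2.10 ± 0.33), Ifi27l2a (-2.09 ± 0.42) and Cmpk2 (-1.80 ± 0.23, log2 fold change ± SE) had adjusted p from 0.000276 to 0.00842. Ifi44l showed the pattern of this group in every library, with 91.5, 30.6 and 84.9 CPM untreated and 12.9, 10.3 and 10.9 CPM after OxLDL. Apol9a and Apol9b, apolipoprotein L genes, moved in the same direction (-1.71 ± 0.26 and -2.49 ± 0.39). Zbp1, a sensor of Z-form nucleic acid, was called (-1.75 ± 0.35, adjusted p = 0.00903) with the highest adjusted p of 0.0537 without OxLDL replicate 2.

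The GTPases that attack the vacuoles of microbes followed. Of 11 tested, 8 fell (72.7% called), with a median of -1.52, and 6 to 9 fell without 1 library. The member above 0, at a log2 fold change of 2.31, did not pass the test. In the fit of the 6 sh-Luc libraries alone 1 member rose and 7 fell. Without untreated replicate 1 of the line labelled sh-PHLPP1, 1 member rose as well. Igtp fell from 34.3, 22.2 and 36.7 to 11.4, 9.74 and 11.8 CPM (-1.50 ± 0.18, adjusted p = 0.000276), and Irgm1 from 154, 96.7 and 142 to 55.5, 47.9 and 60.1 CPM (-1.27 ± 0.15, adjusted p = 0.000269). Gbp2, a guanylate-binding protein, had low levels, with 2.88, 3.42 and 2.28 CPM untreated and 0.966, 1.03 and 0.747 CPM after OxLDL (-1.62 ± 0.24, adjusted p = 0.00117). Gbp3 fell by 2.05 and Gbp9 by 1.69 on the log2 scale. Gbp9 overlaps Gbp8 on the same strand, and Igtp overlaps Irgm2 on the same strand, so their reads may have been shared.

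Of 19 genes of antigen presentation, which cover class I and class II molecules, 7 fell, against 3.04% of all tested genes, and none rose in the fit of all 12 libraries. In the fit of the 6 sh-Luc libraries alone 1 rose and 8 fell. The median was -0.45, and 14 of the 19 were below 0. The count was 3 without OxLDL replicate 1 and 9 without untreated replicate 1 of the line labelled sh-PHLPP1. By an unadjusted p under 0.05 no member was higher and 10 were lower, and DESeq2 called 9 lower and none higher. Psmb10, a catalytic subunit of the immunoproteasome, fell from 84.5, 55.6 and 87.6 to 39.9, 37.6 and 39.4 CPM (-0.96 ± 0.17, adjusted p = 0.00438). H2-T23, the mouse Qa-1 molecule, fell from 245, 216 and 260 to 116, 143 and 136 CPM (-0.87 ± 0.17, adjusted p = 0.00711). The remaining 12 members did not pass the test. The other immunoproteasome subunits were less stable. Psmb8 and Psmb9 were called at log2 fold changes of -0.55 ± 0.15 and -0.87 ± 0.24, with the highest adjusted p of 0.131 and 0.16, both without untreated replicate 3. Psmb9 and Tap1 overlap on opposite strands, and the strand used for counting is not given in the sources used here.

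**Figure D2:**
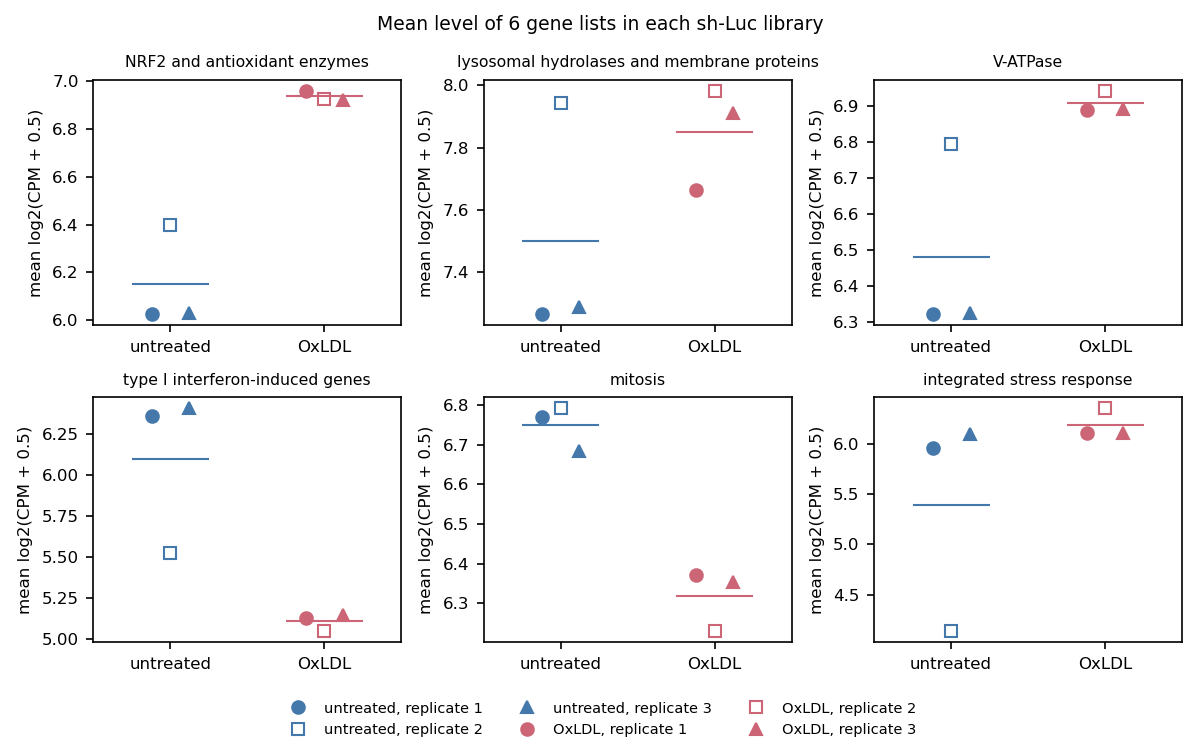
Mean log2(CPM + 0.5) over the tested members of 6 gene lists in each of the 6 sh-Luc libraries, with 1 point per library. Untreated replicate 2 lies nearest to the treated libraries among the untreated ones in the lists of NRF2, interferon-induced, lysosomal and V-ATPase genes.

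Antioxidant genes rose. Of 25 tested genes of the NRF2 list, 13 rose and 2 fell (60% called), with a median log2 fold change of 0.62. Without untreated replicate 2 it was 15 and 2 with a median of 0.94. The mean log2 level of the list was 6.02, 6.40 and 6.03 untreated and 6.92 to 6.96 after OxLDL. Prdx1, a peroxiredoxin that removes peroxides, went from 647, 690 and 643 to 1908, 1789 and 1845 CPM (1.48 ± 0.13, adjusted p = 3.38e-05). The libraries of each group lay close together. The promoter of Prdx1 is shown because it holds TGACNNNGC, the core of the antioxidant response element bound by NRF2, which is in capitals at position -133 and reads on the opposite strand.
Prdx1 promoter (chr4:116685349-116685648, plus strand): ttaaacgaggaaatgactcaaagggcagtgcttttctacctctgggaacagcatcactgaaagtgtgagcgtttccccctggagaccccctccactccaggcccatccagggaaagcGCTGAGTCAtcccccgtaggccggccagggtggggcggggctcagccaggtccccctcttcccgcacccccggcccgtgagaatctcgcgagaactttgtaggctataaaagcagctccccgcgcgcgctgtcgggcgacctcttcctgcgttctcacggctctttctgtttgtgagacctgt
This core overlaps a match to the AP-1 motif TGANTCA, which was searched separately. The core occurs in 17.1% of the 9324 promoters and the AP-1 motif in 6.15%. Among promoters of the called higher genes the shares were 18.4% and 9.69%. Of the 11 promoters of NRF2 list members that rose, 3 held the core and 4 the AP-1 motif.

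Cat encodes catalase, which breaks down hydrogen peroxide, and rose from 80.9, 107 and 80.6 to 332, 290 and 309 CPM (1.79 ± 0.13, adjusted p = 6.62e-06). Slc7a11, the cystine importer that feeds glutathione synthesis, rose from 72.2, 73.9 and 71.9 to 327, 378 and 373 CPM (2.31 ± 0.30, adjusted p = 0.000529). Srxn1, which repairs overoxidised peroxiredoxins, rose from 49.0, 98.5 and 52.2 to 259, 236 and 234 CPM (1.87 ± 0.22, adjusted p = 0.000182). The second untreated library was the highest untreated one for Cat and Srxn1, and it stayed below the treated ones. Both members that fell act differently. Keap1, the inhibitor of NRF2, fell from 110, 108 and 106 to 71.6, 72.5 and 74.6 CPM (-0.57 ± 0.11, adjusted p = 0.00708). Gpx1, a glutathione peroxidase that carries selenium, fell from 430, 434 and 434 to 286, 275 and 297 CPM (-0.60 ± 0.11, adjusted p = 0.00395). Of 14 genes that make NADPH 2 rose (14.3% called, against 9.37% of all tested genes), but 9 were below 0 and the median was -0.16. Of the 2, G6pdx, the entry enzyme of the pentose phosphate pathway, rose from 330, 367 and 312 to 493, 475 and 473 CPM (0.51 ± 0.10, adjusted p = 0.00843). The other, Me1, was called with the highest adjusted p of 0.0911 without untreated replicate 1.

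**Figure D3:**
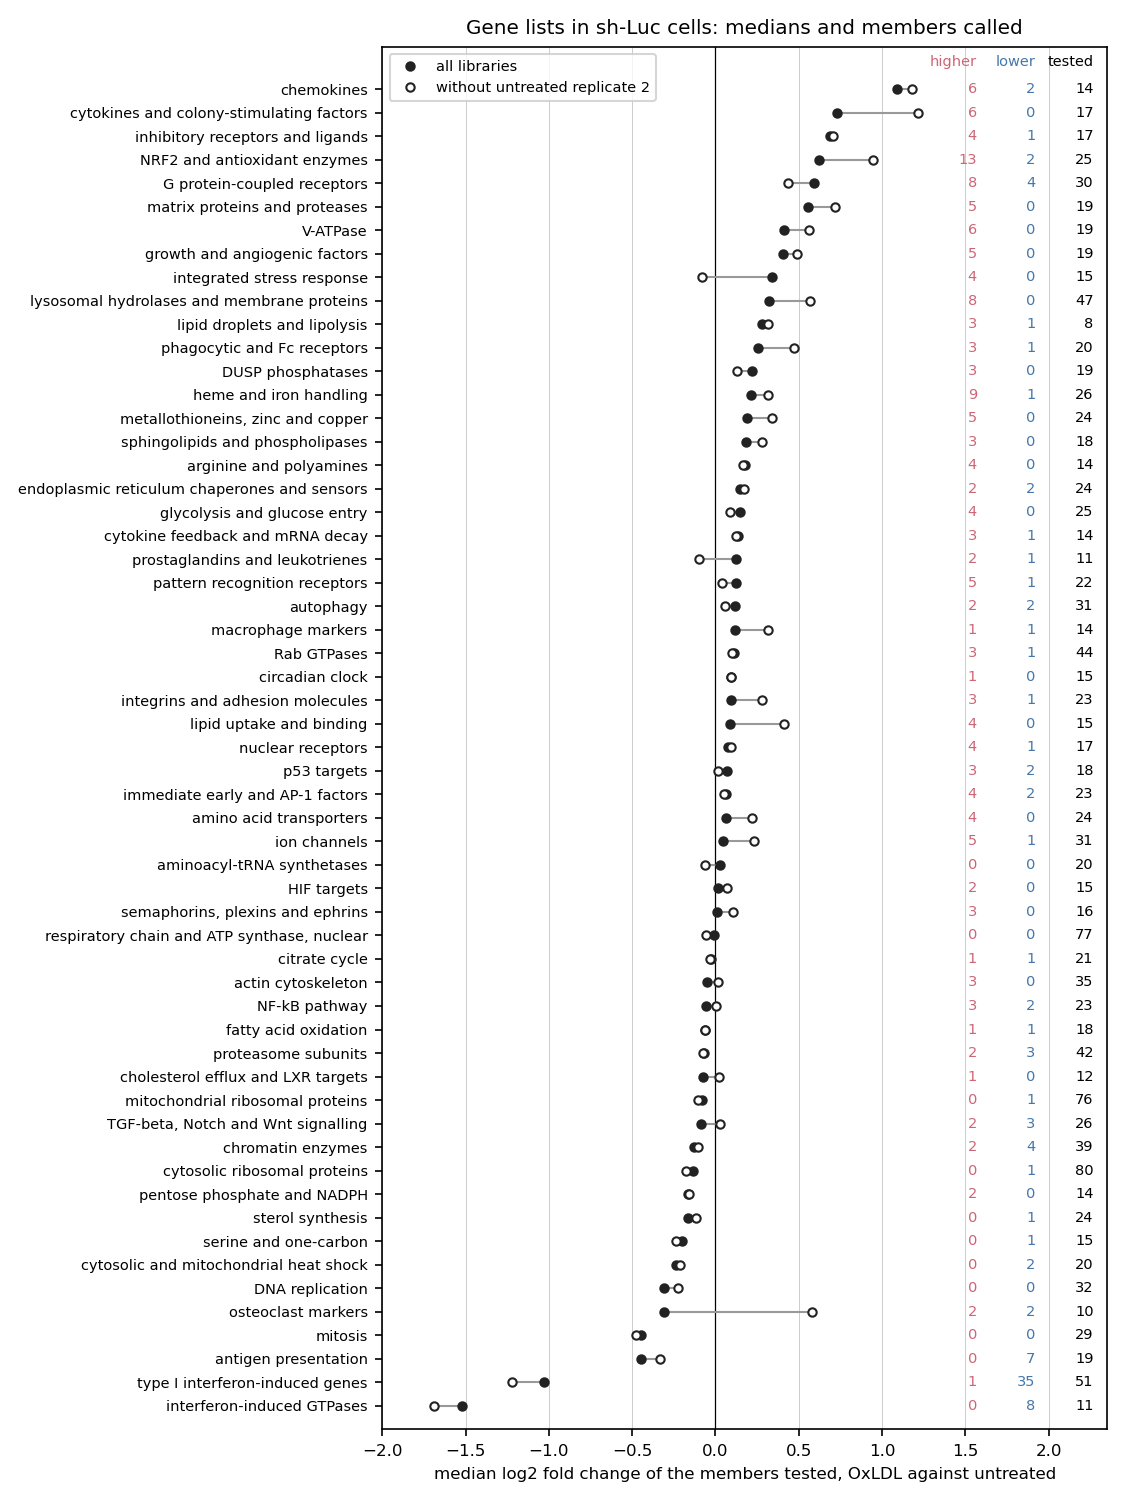
Median log2 fold change, OxLDL over untreated, of each of the 57 gene lists with at least 8 tested genes, with all libraries and without untreated replicate 2, beside the number of members called higher and lower. The interferon-induced GTPases and genes lie lowest, at -1.52 and -1.03, and the chemokines highest, at 1.09.

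Transcripts of heme and iron handling rose in more members than fell. Of 26 tested genes of heme and iron, 9 rose and 1 fell, against 6.33% and 3.04% of all tested genes (7 to 11 rose without 1 library), with a median of 0.22. Slc11a1 (Nramp1) pumps iron and manganese out of phagosomes, and it rose from 72.1, 134 and 79.1 to 363, 473 and 444 CPM (2.17 ± 0.20, adjusted p = 4.29e-05). Blvrb, a biliverdin reductase of heme breakdown, rose from 35.1, 49.0 and 37.3 to 173, 168 and 152 CPM (2.02 ± 0.15, adjusted p = 6.62e-06). Fth1, the heavy chain of the iron store ferritin, rose from 5934, 7813 and 6188 to 15929, 16072 and 16213 CPM (1.27 ± 0.15, adjusted p = 0.000231). Lcn2, which binds bacterial iron carriers, was alike within each group, at 3.64, 3.54 and 3.67 CPM untreated and 18.0, 20.4 and 19.1 CPM after OxLDL (2.41 ± 0.16, adjusted p = 4.42e-06). The member that fell was Hfe, the hemochromatosis protein, from 11.7, 12.4 and 14.5 to 7.60, 7.98 and 7.91 CPM (-0.72 ± 0.14, adjusted p = 0.00706).

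Zinc and copper genes gave 5 higher members of 24 (20.8% called), with a median of 0.19. They gave 4 to 8 higher members without 1 library, with the most without untreated replicate 1 of the line labelled sh-PHLPP1. Slc39a4 (ZIP4), a zinc importer, rose from 0.621, 0.764 and 0.590 to 5.01, 5.81 and 4.86 CPM, a log2 fold change of 2.98 ± 0.29 (adjusted p = 5.54e-05). It was low in every library, and the groups were far apart. The copper carriers Slc31a2 (CTR2) and Slc31a1 (CTR1) rose by different amounts. Slc31a2 went from 38.3, 42.4 and 43.5 to 113, 124 and 112 CPM (1.49 ± 0.11, adjusted p = 9.51e-06) and Slc31a1 from 79.8, 82.0 and 67.3 to 115, 116 and 123 CPM (0.63 ± 0.11, adjusted p = 0.0032). Slc31a1 overlaps Cdc26 on the opposite strand. The metallothionein Mt2, which binds zinc and copper, rose from 166, 143 and 183 to 376, 381 and 379 CPM (1.21 ± 0.20, adjusted p = 0.0028).

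**Figure D4:**
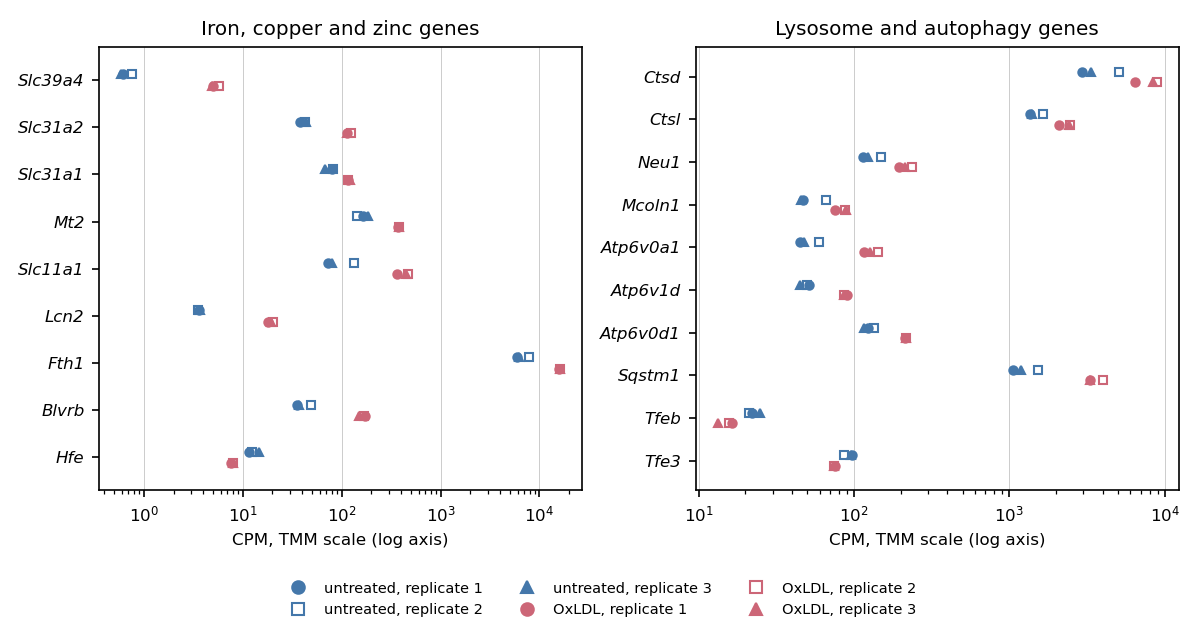
Levels of 9 genes of metals and heme and of 10 genes of the lysosome and autophagy in the 6 sh-Luc libraries, as CPM on a log axis, with 1 point per library. Hfe, Tfeb and Tfe3 were lower after OxLDL and the other genes higher. Ctsl had the highest adjusted p of 0.0882 without OxLDL replicate 2, and Mcoln1 of 0.0525 without untreated replicate 1.

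Of 47 lysosomal genes 8 rose (17.0%, against 6.33% of all tested genes), with a median of 0.32, and how many passed depended on single untreated libraries. Without untreated replicate 2, 20 rose and the median was 0.57, whereas without untreated replicate 1 only 2 rose. The mean log2 level of the list was 7.27, 7.94 and 7.29 untreated and 7.66 to 7.98 after OxLDL, so that library was at the level of the treated ones. The osteoclast markers named above were high in the same library, and their part in the result was not tested. Ctsd, the aspartic protease cathepsin D, rose from 2927, 5093 and 3372 to 6426, 8903 and 8411 CPM (1.06 ± 0.20, adjusted p = 0.0056), with a log2 fold change of 1.33 without untreated replicate 2. Neu1, a sialidase, rose from 115, 149 and 123 to 195, 236 and 215 CPM (0.74 ± 0.12, adjusted p = 0.00189). Gpnmb, a membrane glycoprotein of lysosomes and melanosomes, did not pass the test at 1095, 3756 and 1102 CPM untreated and 3817, 4981 and 4672 CPM after OxLDL (adjusted p = 0.202). Without untreated replicate 2 it did, at a log2 fold change of 2.04 (adjusted p = 0.0279). The promoter of Ctsd holds TCACGTGA, the palindromic core of the CLEAR element bound by TFEB, in capitals at position -99.
Ctsd promoter (chr7:142387778-142388077, minus strand): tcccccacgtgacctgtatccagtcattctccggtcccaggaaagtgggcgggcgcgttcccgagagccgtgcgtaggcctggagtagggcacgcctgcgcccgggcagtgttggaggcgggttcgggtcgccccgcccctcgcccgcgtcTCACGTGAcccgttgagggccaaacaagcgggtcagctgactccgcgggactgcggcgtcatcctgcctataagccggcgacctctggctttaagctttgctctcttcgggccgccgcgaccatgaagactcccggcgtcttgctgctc
This core is in 2.25% of the 9324 promoters and in 2.42% of those of the called higher genes. The same promoter also holds 2 matches to the antioxidant core, at positions -62 and -47.

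Of 19 V-ATPase genes 6 rose (31.6% called), with a median of 0.41. Without untreated replicate 2 it was 12 with a median of 0.56, and without OxLDL replicate 2 it was 3. Members of both parts of the pump rose. Atp6v0a1, of the membrane part, went from 45.3, 59.8 and 47.9 to 116, 142 and 126 CPM (1.33 ± 0.18, adjusted p = 0.000617), and Atp6v0d1 from 123, 134 and 116 to 213, 216 and 216 CPM (0.79 ± 0.15, adjusted p = 0.00539). Atp6v1d, of the part that splits ATP, went from 51.0, 49.6 and 44.9 to 90.5, 86.0 and 86.6 CPM (0.85 ± 0.12, adjusted p = 0.000715). Of 31 autophagy genes 2 rose and 2 fell (12.9% called, against 9.37% of all tested genes). Without 1 library 1 to 9 rose and 0 to 3 fell, with the most of both without untreated replicate 1 of the line labelled sh-PHLPP1, the fewest higher without OxLDL replicate 2 and none lower without OxLDL replicate 1. The receptor Sqstm1 (p62), which ties ubiquitin to autophagy and also binds KEAP1, rose from 1064, 1534 and 1182 to 3323, 3994 and 3325 CPM (1.49 ± 0.19, adjusted p = 0.000414). The transcription factors of lysosomal genes were the members that fell, Tfeb from 22.2, 21.2 and 24.7 to 16.4, 15.7 and 13.3 CPM (-0.58 ± 0.16, adjusted p = 0.0431) and Tfe3 from 97.3, 86.6 and 96.0 to 76.0, 74.7 and 74.7 CPM (-0.31 ± 0.085, adjusted p = 0.0371). Both calls were lost in 9 of the 12 fits without 1 library, with the highest adjusted p of 0.175 for Tfeb without OxLDL replicate 3 and 0.152 for Tfe3 without untreated replicate 1. With the replicate block their adjusted p was 0.0599 and 0.0659. Of 44 Rab GTPases 3 rose and 1 fell (9.09% called), near the 9.37% of all tested genes. Without 1 library 1 to 9 rose, with the fewest without OxLDL replicate 1 and the most without untreated replicate 1 of the line labelled sh-PHLPP1. Rab20, a GTPase of phagosome maturation, rose from 6.83, 6.56 and 7.67 to 18.5, 20.5 and 18.2 CPM (1.44 ± 0.14, adjusted p = 5.54e-05).

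Receptors at the surface changed in both directions. Of 30 G protein-coupled receptors 8 rose and 4 fell (40% called), with a median of 0.59. Without 1 library 3 to 12 rose, the fewest without OxLDL replicate 2 and the most without untreated replicate 1 of the other line. Without the latter 6 fell, and without OxLDL replicate 1 it was 2. Ccr1, which binds Ccl3 and Ccl7, rose from 5.94, 12.5 and 7.21 to 34.2, 45.0 and 43.3 CPM (2.25 ± 0.24, adjusted p = 9.24e-05). Ptgir, the prostacyclin receptor, rose from 29.3, 17.1 and 31.4 to 102, 123 and 108 CPM (2.10 ± 0.44, adjusted p = 0.0118). P2ry2, a receptor for extracellular nucleotides, rose from 13.5, 18.3 and 15.2 to 33.3, 38.2 and 32.1 CPM (1.14 ± 0.15, adjusted p = 0.000402). Gpr183, which senses oxysterols and guides cell migration, fell from 53.4, 76.1 and 53.9 to 29.9, 32.6 and 32.1 CPM (-0.96 ± 0.16, adjusted p = 0.00279), and it overlaps Ubac2 on the opposite strand. The serotonin receptor Htr1b, described above, had the lowest log2 fold change of the list.

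Of 31 ion channels 5 rose and 1 fell (19.4% called). Without untreated replicate 1 of the line labelled sh-PHLPP1 8 rose and 2 fell, and without OxLDL replicate 1 none fell. Mcoln2, an endolysosomal cation channel, rose from 5.41, 8.17 and 4.00 to 17.3, 21.4 and 21.7 CPM (1.78 ± 0.21, adjusted p = 0.000231). P2rx4, a channel opened by ATP, rose from 15.7, 17.3 and 17.1 to 31.0, 34.4 and 30.6 CPM (0.94 ± 0.14, adjusted p = 0.00101), and Orai1, the pore of store-operated calcium entry, from 35.1, 30.2 and 41.4 to 55.5, 75.3 and 62.8 CPM (0.86 ± 0.16, adjusted p = 0.00546). Hvcn1, the proton channel that supports the oxidative burst, was low and rose from 1.29, 1.73 and 1.90 to 4.39, 4.27 and 4.61 CPM (1.43 ± 0.19, adjusted p = 0.000612). It overlaps Tctn1 on the opposite strand, which has a similar number of counts. The groups of these called channels did not overlap, as was so for 1227 of the 1230 called genes and for 43.2% of all tested genes.

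Of 17 inhibitory receptors and ligands 4 rose and 1 fell (29.4% called), with a median of 0.69. Up to 9 rose without untreated replicate 1 of the other line, and 3 without OxLDL replicate 1. Cd274 (PD-L1), which restrains T cells, rose from 4.39, 5.15 and 4.85 to 16.4, 19.0 and 16.9 CPM (1.86 ± 0.12, adjusted p = 4.42e-06). Cd200r1, which restrains myeloid cells on contact with CD200, rose from 23.6, 27.3 and 24.1 to 61.6, 63.8 and 60.5 CPM (1.31 ± 0.12, adjusted p = 4.29e-05). Clec12a, a lectin that binds uric acid crystals, was the member that fell, from 64.2, 60.7 and 63.5 to 32.7, 30.4 and 30.7 CPM (-1.01 ± 0.14, adjusted p = 0.000776). Of 20 phagocytic and Fc receptors 3 rose and 1 fell (20% called), and 8 rose without untreated replicate 1 of the other line. Fcgr2b, the inhibitory Fc receptor, rose from 13.3, 6.84 and 16.8 to 35.8, 45.1 and 41.0 CPM (1.72 ± 0.30, adjusted p = 0.00403). Stab1, a scavenger receptor, rose from 1.20, 1.13 and 1.73 to 5.97, 7.02 and 5.92 CPM (2.22 ± 0.29, adjusted p = 0.000422), and it overlaps the more highly counted Nt5dc2. Axl, a receptor for dying cells that interferon is known to raise, fell from 12.3, 7.32 and 13.7 to 3.29, 3.93 and 3.43 CPM (-1.64 ± 0.24, adjusted p = 0.00106).

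Of 22 pattern recognition genes 5 rose and 1 fell (27.3% called). There were 3 higher without OxLDL replicate 2 and 3 lower without untreated replicate 1 of the other line. Clec4d, a lectin for mycobacterial and fungal lipids and sugars, rose from 153, 227 and 147 to 513, 469 and 485 CPM (1.48 ± 0.17, adjusted p = 0.000199). Tlr13, the mouse sensor of bacterial ribosomal RNA, rose from 32.9, 40.9 and 33.4 to 78.5, 84.2 and 86.6 CPM (1.22 ± 0.12, adjusted p = 5.54e-05). Myd88, the adaptor of most Toll-like receptors, fell from 82.5, 67.6 and 81.8 to 47.0, 47.4 and 46.7 CPM (-0.72 ± 0.1, adjusted p = 0.000746). Myd88 overlaps Acaa1a, which has more counts, on the opposite strand. Among 23 integrins and adhesion molecules 3 rose and 1, Itga4, fell (17.4% called). There was 1 higher without OxLDL replicate 2, and 6 without untreated replicate 2. Of 19 matrix proteins and proteases 5 rose (26.3% called), with a median of 0.56. Without 1 library 2 to 8 rose, the fewest without OxLDL replicate 2 and the most without untreated replicate 1 of the other line. Mmp9, a gelatinase, rose from 43.4, 50.8 and 53.2 to 75.7, 155 and 126 CPM with a wide spread among treated libraries (1.28 ± 0.22, adjusted p = 0.0032). Nrp1, a co-receptor for semaphorins and VEGF, rose from 33.2, 29.3 and 32.4 to 52.2, 62.5 and 57.5 CPM (0.86 ± 0.13, adjusted p = 0.00113). It was 1 of 3 higher genes among 16 semaphorins, plexins and ephrins (18.75% called, and 5 higher without untreated replicate 2).

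Signalling regulators held called genes in both directions. Of 19 dual-specificity phosphatases, which switch off MAP kinases, 3 rose (15.8% called). Among them Dusp14 rose from 3.99, 2.90 and 3.25 to 10.1, 9.38 and 11.1 CPM (1.60 ± 0.16, adjusted p = 5.54e-05). Of 23 genes of the NF-kB pathway 3 rose and 2 fell (21.7% called). Only 1 rose without OxLDL replicate 1, and 6 rose and 4 fell without untreated replicate 1 of the other line. Nfkbiz, a nuclear co-regulator of NF-kB, rose from 28.8, 36.0 and 33.3 to 80.4, 97.3 and 83.6 CPM (1.41 ± 0.24, adjusted p = 0.00326). The adaptor Traf1 fell from 28.7, 31.3 and 28.7 to 18.2, 22.1 and 18.5 CPM (-0.59 ± 0.11, adjusted p = 0.00451) and the inhibitor Tnip3 from 72.3, 64.6 and 76.5 to 43.4, 39.0 and 39.6 CPM (-0.81 ± 0.12, adjusted p = 0.00121). Zc3h12a (regnase-1), an RNase that degrades cytokine messages, rose from 23.7, 43.2 and 25.9 to 75.0, 80.2 and 74.1 CPM (1.30 ± 0.19, adjusted p = 0.000887). The AP-1 partner Maff rose from 6.25, 5.87 and 4.93 to 15.0, 18.3 and 16.0 CPM (1.53 ± 0.16, adjusted p = 8.88e-05).

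Of 15 genes of the integrated stress response 4 rose, against 6.33% of all tested genes, and 14 were above 0. Without OxLDL replicate 2 the number that rose was 2. The list was low in untreated replicate 2, with mean log2 levels of 5.96, 4.13 and 6.09 untreated and 6.11 to 6.35 after OxLDL, and its median went from 0.34 to -0.08 without that library. Atf3, a stress-induced repressor, rose from 27.0, 12.3 and 31.1 to 104, 111 and 100 CPM (2.16 ± 0.42, adjusted p = 0.00723), and without untreated replicate 2 its log2 fold change was 1.86. Ppp1r15a (GADD34), which restores translation, rose from 34.9, 24.8 and 37.0 to 74.4, 91.8 and 75.9 CPM (1.33 ± 0.15, adjusted p = 0.000181). Of 18 targets of p53 3 rose and 2 fell (27.8% called). Without OxLDL replicate 1 it was 2 and 1, 5 rose without untreated replicate 2, 4 fell without untreated replicate 1 of the other line, and 1 fell with the replicate block. Plk2, a polo-like kinase, was even within each group and rose from 80.2, 86.2 and 86.5 to 332, 374 and 331 CPM (2.04 ± 0.36, adjusted p = 0.00415). Gadd45a, a stress-response gene of DNA damage, rose from 12.4, 6.64 and 14.8 to 33.9, 43.4 and 35.6 CPM (1.74 ± 0.27, adjusted p = 0.00174), while Sesn1, which restrains mTORC1, fell from 13.6, 14.2 and 12.4 to 8.83, 7.72 and 7.35 CPM (-0.75 ± 0.13, adjusted p = 0.00337). The heat shock protein gene Hspa1b fell from 7.98, 15.0 and 7.38 to 4.48, 2.87 and 3.18 CPM (-1.53 ± 0.27, adjusted p = 0.00382), as 1 of 2 lower genes among 20 heat shock genes. Of this list 10% was called, against 9.37% of all tested genes, and 1 to 8 members fell without 1 library. The most fell without untreated replicate 1 of the line labelled sh-PHLPP1.

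Among 17 nuclear receptors 4 rose and 1 fell (29.4% called), with 2 higher without OxLDL replicate 2. None fell without OxLDL replicate 1 or with the replicate block. Rxra, the partner of LXR and PPAR receptors, rose from 5.23, 6.07 and 4.85 to 11.9, 13.2 and 12.1 CPM (1.20 ± 0.20, adjusted p = 0.00257). Rora, an orphan receptor of the clock, rose at a low level from 0.532, 0.603 and 0.632 to 1.76, 1.21 and 2.06 CPM (1.48 ± 0.29, adjusted p = 0.0072). Bhlhe41, a repressor within the clock, was the 1 called gene of 15 clock genes (6.67%, against 9.37% of all tested genes). It rose from 41.2, 44.4 and 37.9 to 91.2, 98.4 and 89.4 CPM (1.18 ± 0.19, adjusted p = 0.00207). Of the clock genes 3 rose without untreated replicate 1 of the other line.

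Of 8 genes of lipid droplets and lipolysis 3 rose and 1 fell, against 6.33% and 3.04% of all tested genes. Plin2, which coats lipid droplets, rose from 330, 270 and 356 to 1371, 1501 and 1330 CPM (2.14 ± 0.15, adjusted p = 4.42e-06), and Hilpda, an inhibitor of droplet lipase, from 17.0, 28.8 and 18.7 to 97.5, 114 and 93.8 CPM (2.24 ± 0.19, adjusted p = 2.45e-05). Plin3, another coat protein, was the third to rise (0.80 ± 0.097, adjusted p = 0.000269). Lipe, the hormone-sensitive lipase, was the member that fell, from 26.7, 31.4 and 29.8 to 17.1, 19.8 and 19.7 CPM (-0.64 ± 0.15, adjusted p = 0.0189), with the highest adjusted p of 0.0931 without OxLDL replicate 1. In the uptake list 4 of 15 rose (26.7% called), and 7 did so without untreated replicate 1 of the other line. Fabp4, a fatty acid carrier, was 1 of the 4 and rose from 20.5, 10.1 and 18.4 to 102, 91.3 and 101 CPM (2.59 ± 0.24, adjusted p = 4.46e-05). The scavenger receptor Cd36 rose from 133, 282 and 146 to 376, 432 and 450 CPM (1.16 ± 0.24, adjusted p = 0.0105), with a log2 fold change of 1.59 without untreated replicate 2. Of 12 genes of cholesterol efflux 1 rose, and of 24 genes of sterol synthesis 1 fell, against 9.37% of all genes called. Without OxLDL replicate 1 neither was called. Without untreated replicate 1 of the other line 3 rose and 2 fell in the first list and 3 rose and 4 fell in the second, and with the replicate block none rose and 1 fell in the first and 2 fell in the second. Of 18 genes of sphingolipids and phospholipases 3 rose (16.7% called). None rose without OxLDL replicate 2, and 6 rose without untreated replicate 1 of the other line. Of 11 genes of prostaglandins and leukotrienes 2 rose and 1 fell (27.3% called, and 4 rose without the latter library). Ptges, which makes prostaglandin E2, rose from 13.5, 18.4 and 13.6 to 59.4, 61.5 and 60.7 CPM (1.99 ± 0.15, adjusted p = 6.62e-06). Tbxas1, the thromboxane synthase, fell from 1.15, 0.925 and 1.31 to 0.395, 0.257 and 0.249 CPM (-1.88 ± 0.34, adjusted p = 0.00464), at low counts and in overlap with the more highly counted Hipk2. Ptgs2, the inducible cyclooxygenase, did not pass the test at 142, 549 and 157 CPM untreated and 566, 809 and 742 CPM after OxLDL (adjusted p = 0.0678), and passed it without untreated replicate 2 at a log2 fold change of 2.24 (adjusted p = 2.35e-05), or with the replicate block (adjusted p = 0.0435).

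The respiratory chain and the ribosome held fewer called genes than the 9.37% of all tested genes. None of 77 nuclear genes of the respiratory chain and ATP synthase passed edgeR's test. At an unadjusted p under 0.05, 3 were lower and none higher, and DESeq2 called 2 lower and none higher. Without untreated replicate 1 of the line labelled sh-PHLPP1, 1 was higher and 1 lower. Of 76 mitochondrial ribosomal proteins 1 fell (Mrps6, from 112, 106 and 95.5 to 63.8, 54.7 and 56.1 CPM, adjusted p = 0.00486), and it overlaps Slc5a3 on the same strand. Without the same library, 6 of these fell. Of 80 cytosolic ribosomal proteins 1 fell and 74 had a log2 fold change below 0, with a median of -0.13. Without 1 library, 0 to 5 of them fell, the most without that library and none without OxLDL replicate 1, and 2 fell with the replicate block. Sugar and arginine genes were called more often. Of 25 genes of glycolysis and glucose entry 4 rose (16.0%, against 6.33% of all tested genes), and 2 without OxLDL replicate 2. Hk3, a hexokinase of myeloid cells, rose from 218, 281 and 240 to 588, 805 and 651 CPM (1.47 ± 0.15, adjusted p = 6.54e-05), and Eno2, an enolase, from 5.45, 5.55 and 5.02 to 19.2, 20.2 and 17.7 CPM (1.83 ± 0.22, adjusted p = 0.000231). Of 14 genes of arginine and polyamines 4 rose (28.6%). Without OxLDL replicate 1 it was 2, without untreated replicate 1 of the other line 6 rose and 2 fell, and in the fit of the 6 sh-Luc libraries alone 4 rose and 3 fell. Those called include Asl, which makes arginine, from 44.9, 45.9 and 48.4 to 65.6, 74.2 and 69.9 CPM (0.59 ± 0.10, adjusted p = 0.00348). Slc15a3, a lysosomal carrier of histidine and peptides, rose from 56.8, 45.9 and 59.2 to 143, 186 and 159 CPM (1.59 ± 0.26, adjusted p = 0.00217).

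Genes of DNA replication and mitosis did not pass edgeR's test in any of their 32 and 29 members, but nearly all lay below 0. The medians were -0.31 and -0.44, and 30 of 32 and 27 of 29 members had a log2 fold change below 0. At an unadjusted p under 0.05 there was 1 lower mitosis gene and no replication gene, and DESeq2 called 0 of both lists. The mean log2 level of the mitosis list was 6.77, 6.79 and 6.69 untreated and 6.37, 6.23 and 6.35 after OxLDL, without overlap. In the fit of the 6 sh-Luc libraries alone, 14 replication genes and 21 mitosis genes fell. Without untreated replicate 1 of the line labelled sh-PHLPP1, which that fit does not use either, the counts were 14 and 19.

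Of 14 tested macrophage markers 1 rose and 1 fell (14.3% called, against 9.37% of all tested genes). None rose without OxLDL replicate 2 and 4 rose without untreated replicate 1 of the other line, while 4 rose and 1 fell in the fit of the 6 sh-Luc libraries alone. Itgam (CD11b), an integrin chain of myeloid cells, rose from 322, 270 and 322 to 471, 709 and 701 CPM (1.04 ± 0.22, adjusted p = 0.0104), with the highest adjusted p of 0.0546 without OxLDL replicate 2. Csf1r, the receptor for M-CSF, had 1583, 3139 and 1511 CPM untreated and 820, 1132 and 1062 CPM after OxLDL (adjusted p = 0.0476), with the highest adjusted p of 0.173 without OxLDL replicate 1 and 0.0756 with the replicate block. The call of Csf1r was also lost without untreated replicate 2, the highest untreated library. Of 10 tested osteoclast markers 2 rose and 2 fell (40% called). There were 4 higher without untreated replicate 2 and 4 lower without untreated replicate 1 of the other line. Nfatc1, described above, was 1 of those that fell (-1.33 ± 0.33, adjusted p = 0.026), with the highest adjusted p of 0.0951 without OxLDL replicate 2 and a log2 fold change of -0.65 without untreated replicate 2. Tnfrsf11a (RANK), the receptor that starts osteoclast formation, fell from 81.2, 103 and 81.5 to 48.7, 48.1 and 52.6 CPM (-0.83 ± 0.15, adjusted p = 0.00503). S100a8, a granulocyte marker that macrophages can express, rose from 0.842, 0.644 and 1.18 to 3.60, 2.79 and 4.36 CPM (2.00 ± 0.41, adjusted p = 0.0093), while 5 of the 11 neutrophil and mast cell markers had no count.

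The response of the sh-Luc line was set against that of the line labelled sh-PHLPP1 in the same fit. In that line 7161 genes were called (54.6%), and the difference between both responses (the interaction) was called for 3236 genes (24.7%). Leaving out 1 library gave 2115 to 4510. Of the 1230 genes called in sh-Luc cells, 977 were called in the other line in the same direction, 37 in the opposite one, and 496 (40.3%) had a called interaction. Phlpp1 stood at 17.3, 14.6 and 14 CPM in untreated and 8.65, 8.35 and 7.40 CPM in OxLDL libraries of that line, so its untreated libraries did not hold less of the targeted transcript than untreated sh-Luc libraries, and the line is called by its label. Among the leading genes, 16 higher and 9 lower ones had a called interaction. The leading genes had to reach a mean level over all 12 libraries, and Cxcl3, Urah, Il23a, Ccl7 and Ranbp3l reached it only through libraries of the other line. A stronger response of the 4 higher ones in that line is thus partly fixed by the choice. Of the 16 leading higher genes that reached that level in the sh-Luc libraries alone, 12 had a called interaction. Without untreated replicate 1 of the line labelled sh-PHLPP1 all 25 interactions were called again. Of these the interaction of Id3 alone moved by over 1.5 times, from 4.72 to 5.76, and Tbc1d9 and Lix1 were called in addition. The leading lower genes were chosen for low sh-Luc fold changes, which the interaction subtracts, so their positive interactions are partly favoured by the choice.

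Lcn2 and Acod1, which reached the level in sh-Luc cells, rose further in the other line. Lcn2 reached 1338, 1323 and 1818 CPM there from 1.51, 1.80 and 2.14 CPM, a log2 fold change of 9.67, against 2.41 ± 0.16 in sh-Luc cells (interaction 7.27 ± 0.24, adjusted p = 4.24e-09). Acod1 reached 3355, 3522 and 3177 CPM from 12.4, 10.3 and 10.9 CPM (interaction 5.53 ± 0.23, adjusted p = 2.06e-08). Of the leading genes without a called interaction, Tbc1d9 had log2 fold changes of 2.83 and 3.47 (interaction adjusted p = 0.174, and 0.00806 without untreated replicate 1 of that line). The interferon genes did not move alike. Ifit1 fell in sh-Luc cells but rose in the other line from 16.9, 17.2 and 17.6 to 85.2, 77.7 and 94.4 CPM (interaction 4.03 ± 0.26, adjusted p = 1.44e-06). Irf7 had 322, 392 and 426 CPM untreated and 393, 347 and 444 CPM with OxLDL there, a log2 fold change of 0.053 (interaction 1.77 ± 0.37, adjusted p = 0.00644). Ifi44l and Oasl2 fell in both lines, and their interactions were not called (adjusted p = 0.296 and 0.821). Traf1, lower in sh-Luc cells, rose in the other line from 22.2, 24.3 and 24.4 to 346, 392 and 377 CPM (interaction 4.56 ± 0.15, adjusted p = 4.24e-09). Tlr13 and Nrp1, higher in sh-Luc cells, fell there (log2 fold changes of -0.86 and -0.98, interaction adjusted p = 9.33e-06 and 3.59e-05). Kbtbd11 and Dmpk fell in both lines and further in the other one (interactions of -1.97 ± 0.21 and -1.90 ± 0.37, adjusted p = 7.42e-05 and 0.00409).

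**Figure D5:**
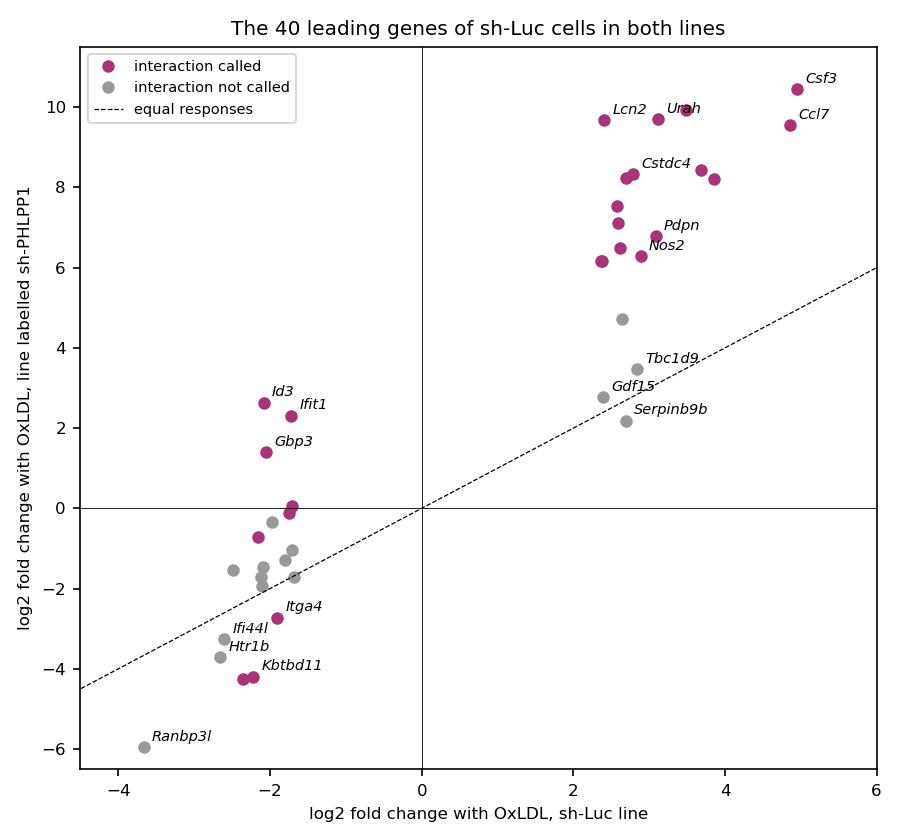
Log2 fold change of OxLDL over untreated in the sh-Luc line (x axis) and in the line labelled sh-PHLPP1 (y axis) for the 40 leading genes, with called interactions coloured. The 16 higher genes with a called interaction lie above the line of equal response, and 4 of them (Cxcl3, Urah, Il23a and Ccl7) are among the leading genes only through their level in the other line. Ifit1, Gbp3, Id3 and Irf7 have log2 fold changes of opposite sign in the lines, such as -1.72 in sh-Luc cells and 2.31 in the other line for Ifit1. Irf7 lies only slightly above no change in the other line.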

How the data were processed

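RNA was sequenced from bulk cultures in 12 libraries, 4 groups of 3, grouped by their labels. The authors deposited raw read counts (39179 Ensembl genes), made with FastQC, Trimmomatic and HTSeq on GRCm38, per the submitters' processing notes, without versions. The aligner, strand setting and annotation release are not given in the sources used here. Beside the counts, the authors deposited a DESeq2 table of OxLDL against untreated sh-Luc cells. Per the file headers it holds mean signal as normalised counts, log2 fold changes, a test score, p-values and adjusted p-values, and it served only for a comparison of calls. Rows without a symbol (1632) held 0.397 to 0.505% of counts and were kept as features, and the 37 mitochondrial rows held no counts.

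Tests ran in edgeR 4.0.16 under R 4.3.3 (filterByExpr, TMM, robust quasi-likelihood F test, all 12 libraries as 4 group means, no replicate block). Per the labels, a replicate number stands for the same passage in every group. Deviations of same-numbered untreated and OxLDL sh-Luc libraries from their group means correlated at 0.160, 0.0304 and -0.0302, and results with the number as a block are given where it changes a call. Tests were 2-sided, with Benjamini-Hochberg adjustment over the 13121 genes tested and calls at an adjusted p under 0.05. The common biological coefficient of variation was 0.171. The SE of a log2 fold change is its size over the root of F, which is approximate. The interaction is the response of the line labelled sh-PHLPP1 minus that of sh-Luc. The sh-Luc contrast was also tried on simulated counts of 13121 genes with the spread of these libraries. Only a small set of genes above a minimum mean level was changed there. Of these, 78% of 2-fold and 99% of 4-fold changes were recovered. The simulated counts hold no library that stands apart, and the recovery does not cover genes near the floor. Totals ran from 16020186 to 27422114 counts per library.

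The leading genes are the 20 highest and 20 lowest log2 fold changes among called genes that have a named symbol, no overlap between groups and a mean log2 CPM over all 12 libraries no lower than 2. The 10 smallest p-values, up to 4 called members of each list in each direction and up to 2 uncalled ones were also named. Genes named outside this rule, such as Cxcl10, Tnf, Psmb8, Ctsk and Ptgs2, were chosen after their values were seen. The members and the 62 lists were chosen with earlier results of these data known. Positions come from GENCODE M21 (GRCm38), which held 37693 of the identifiers. Of 341 genes open to naming, 36 share a stretch with a neighbour that has no less than 5% of their counts. DESeq2 1.42.0, other scalings and filters, single libraries left out, the replicate block and the 6 sh-Luc libraries alone were tried as alternatives.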

Additional observations from a re-analysis of the deposited data

Results flagged for a closer look

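For 25 of the 40 leading genes the test of the difference between the OxLDL responses of both lines was called, and that difference is what drew attention to them. Values are the response of the line labelled sh-PHLPP1 minus the response of the sh-Luc line, on the log2 scale. Among the secreted signals the difference was 6.44 for Cxcl3, 5.51 for Csf3, 4.74 for Cxcl2, 4.69 for Ccl7, 4.35 for Ccl2 and 3.80 for Il23a. Among enzymes and metabolic proteins it was 6.60 for Urah, 5.53 for Acod1, 4.53 for Fabp4, 3.87 for Upp1 and 3.40 for Nos2. The secreted proteins Lcn2 and Slpi gave 7.27 and 4.96, the cystatin relative Cstdc4 gave 5.54, and the surface proteins Tnfrsf1b and Pdpn gave 3.78 and 3.69. All 16 of these genes were called higher in both lines. Cxcl3, Urah, Il23a and Ccl7 met the level asked of leading genes only through libraries of the other line, so their larger response there is partly fixed by the choice.

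Among genes that were lower in sh-Luc cells, the difference was 4.72 for Id3, 4.03 for Ifit1, 3.46 for Gbp3, 1.77 for Irf7, 1.63 for Zbp1 and 1.45 for Ifit3. It was negative for Kbtbd11 at -1.97, Dmpk at -1.90 and Itga4 at -0.82, which were lower in both lines. The lower genes were chosen for their low sh-Luc fold changes, which the difference subtracts, so positive values are partly favoured by the choice. Il23a, Zbp1 and Id3 lost their sh-Luc call in some of the fits without 1 library.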

How the results depend on the processing

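Of the 191 named genes called in sh-Luc cells none changed direction under any alternative tried, and between 0 (DESeq2) and 62 (without OxLDL replicate 2) lost their call. The number of calls differed with the test and with the libraries used, and the estimate of the spread was not varied alone. Against 1230 calls, DESeq2 gave 1922, of which 877 were lower, and the 6 sh-Luc libraries alone gave 2943 (1555 higher, 1388 lower). Chosen after seeing the data, the sh-Luc libraries without untreated replicate 2 gave 4908 (2572 and 2336), and all libraries without the untreated library of each line that stood apart gave 3512 (2062 and 1450), with 5309 called interactions. Leaving out 1 library gave 560 to 3083 calls, 409 to 1761 higher and 151 to 1322 lower, and 2115 to 4510 interactions. With the replicate block there were 1110 calls, and 2540 (1366 and 1174) in the 6 sh-Luc libraries with it. Of the genes in the report, the block ended the calls of Cxcl10, Id3, Tfeb, Tfe3 and Csf1r and added that of Ptgs2, as given there, and it changed no other sh-Luc call of a gene described there. TMM against DESeq2 size factors or library size alone, and other filters, kept the count within 1.5 times. Interactions that were not called changed sign. Gbp9 (-0.03) gave 0.00033 with DESeq2, 0.00970 with its size factors, 0.0268 without both libraries that stood apart and -0.243 to 0.224 without 1 library. Oasl2 (0.16) gave -0.205 by library size and -0.102 to 0.517 without 1 library, and Gdf15 (0.38) gave -0.228 to 0.902. The cause was not tested. With 3 libraries a group, depth and spread limit calls among genes near the floor of 3 counts, such as Ccl7, Cxcl3, Il6 and Urah.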
